A study of Danio rerio with 6 samples.

Results

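The genes described here are the aromatases of zebrafish, cyp19a1a (ENSDARG00000041348) and cyp19a1b (ENSDARG00000098360), and the forkhead transcription factors foxl2a (ENSDARG00000042180) and foxl2b (ENSDARG00000068417). They were chosen by identifier from the 32520 genes of the count table, and all 4 were found in it and had at least 1 read. Their RNA was measured in EM-juveniles and control juveniles of the AB strain, as whole bodies at the end of the exposure. EM-juveniles were kept from fertilization in water with 10 µg/L exemestane (EM), a steroidal inhibitor of aromatase, and control juveniles in the solvent dimethyl sulfoxide (DMSO) at 10 µL/L, each for 32 days. The EM was dissolved in DMSO. Each library held 25 fish of 1 tank, with 3 libraries per group. No sex is given for the pooled fish, so a library may mix future females and future males. In such bulk RNA, fewer cells of a type and less RNA per cell cannot be told apart.

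Aromatase converts androgens into estrogens. Fish have a form best known from the ovary, where the follicle cells around the oocytes carry cyp19a1a, and a form best known from the brain, where radial glia carry cyp19a1b. In zebrafish, cyp19a1b is itself switched on by estrogen in the brain, as are the yolk precursor genes in the liver. Foxl2 is a transcription factor of ovarian somatic cells that activates aromatase transcription, and in mice it is also made in the pituitary and the eyelids. Exemestane acts on the aromatase protein, so a lower enzyme activity need not appear in the RNA of the genes that encode it.

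The total count per library ran from 4057579 to 7804654 in EM-juveniles and from 3169530 to 7324337 in control juveniles. Control replicate 2 stood apart: it had the smallest total and 21182 detected genes, against 24418 to 24966 in the other 5 libraries. Its size factor was 0.404, so that 3 reads, taken here as the floor, correspond to a normalised read count of 7.43 in it and of 1.76 to 3.36 in the others. A normalised read count is the count divided by the size factor of the library. The size factor of control replicate 2 was also low for its total, since EM replicate 3 had 0.8935 at a total of 4057579. Control replicate 2 thus differed in its mix of reads as well as in depth. Among genes picked after their values were seen, pvalb2 was at 52320 in it, against 10080 to 13360 in the others. In contrast, aff4 was at 4.95, against 105 to 212. Both depth and mix bear on each member, and all members are weakly expressed in whole bodies. Of the genes with reads, 8.01% had a lower mean than cyp19a1a, 26.2% than foxl2b, 32.2% than foxl2a and 42.9% than cyp19a1b. These ranks are not corrected for gene length, and levels are not compared between genes here beyond shares and ratios of reads within each pair.

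The gonad form, cyp19a1a, was almost not detected in either group. EM replicates 1, 2 and 3 had 0, 0 and 2 reads, and control replicates 1, 2 and 3 had 0, 0 and 2 reads. The reads thus had the same sums in both groups and came from 1 library of each. Over the group, 2 of 16039914 reads is 0.125 CPM (counts scaled by the library total) in EM-juveniles (95% exact Poisson interval 0.0151 to 0.45), and 2 of 16514108 reads is 0.121 in control juveniles (0.0147 to 0.438). These intervals, like all those on counts below, cover counting error only and not the spread between tanks. The reads also carry no molecular identifiers. Taking the floor of 3 reads as what a count of 0 allows, rather than the upper end of a two-sided interval, the limit was 0.384 and 0.718 CPM in EM replicates 1 and 2, against 0.498 and 0.946 CPM in control replicates 1 and 2. No fold change is given for a gene at or under the floor in every library, and a difference in cyp19a1a was not detectable at this depth.

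The brain form, cyp19a1b, was high in a single library, and that library was a control. Its counts were 16, 12 and 12 in EM replicates 1, 2 and 3, against 134, 4 and 13 in control replicates 1, 2 and 3. After division by the size factors these were 9.37, 13.3 and 13.4 in EM-juveniles and 108, 9.91 and 8.44 in control juveniles. Control replicate 1 stood 8.03 times above the next library, and the other control libraries lay within or below the range of the EM libraries, so the groups overlapped. Its exact Poisson interval of 90.3 to 128 lay far above the highest upper bound of the other 5 libraries, 25.4 in control replicate 2. The gap was thus larger than counting error.

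The group means of cyp19a1b were 12.0 ± 2.31 in EM-juveniles and 42.1 ± 56.9 in control juveniles (SD, n = 3 each), and the SD of the controls was larger than their mean. DESeq2 gave a log2 fold change of -1.83 ± 1.00 (SE) between the groups, with a 95% interval of -3.79 to 0.13 and an adjusted p-value of 0.764. On the scale of log2(normalised read count + 1) the exact permutation test, two-sided, gave p = 0.9, where 3 libraries against 3 cannot go below 0.1. The difference hung on control replicate 1. Without it the control mean was 9.17 against 12.0 in EM-juveniles, and the log2 fold change turned to 0.40 ± 0.89 (SE). Without control replicate 2 or 3 the log2 fold change was -2.27 or -2.33, with DESeq2 adjusted p-values of 0.437 and 0.241. Hence cyp19a1b was not called in any of these fits, and the sign of its difference was that of 1 tank of fish.

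**Figure D1:**
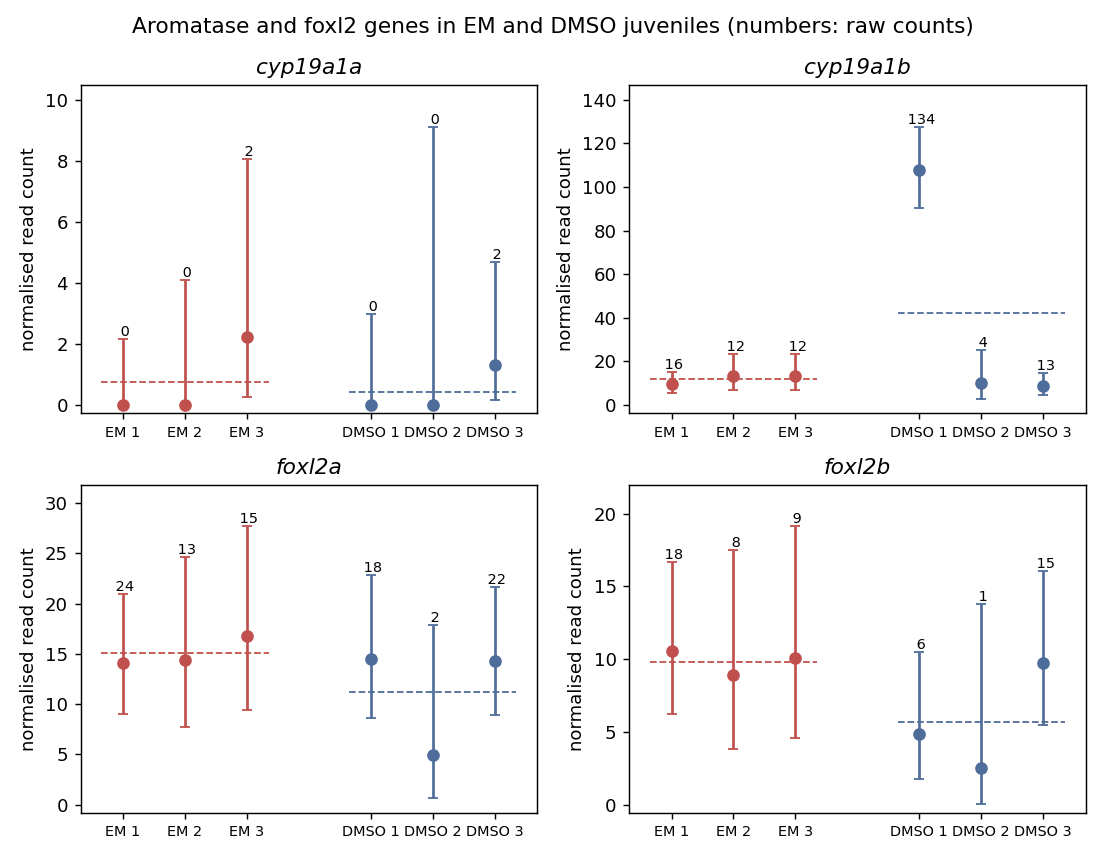
Normalised read counts of cyp19a1a, cyp19a1b, foxl2a and foxl2b, with 1 point per library (EM replicates in red, control replicates, marked DMSO, in blue), the raw count above each point, 95% exact Poisson intervals as bars and the group mean as a dashed line. For cyp19a1b, control replicate 1 stands at 108 while the other 5 libraries lie between 8.44 and 13.4, and cyp19a1a has at most 2 reads in any library.

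Nearly all aromatase reads came from the brain form, in shares of reads that are not corrected for gene length. In EM replicates 1, 2 and 3 it took 16 of 16, 12 of 12 and 12 of 14 reads, and in control replicates 1, 2 and 3 it took 134 of 134, 4 of 4 and 13 of 15 reads. The lowest share was 85.7% (95% Clopper-Pearson interval 57.2 to 98.2%) in EM replicate 3, close to 86.7% (59.5 to 98.3%) in control replicate 3. The log2 ratio of cyp19a1b over cyp19a1a, with 0.5 added to each count, differed between EM-juveniles and control juveniles by -0.55 (exact permutation test, two-sided, p = 0.8, where 0.1 is the smallest possible). With 1 added in place of 0.5 it was -0.57. In 4 of the 6 libraries no read of cyp19a1a entered the ratio, and the sign of the difference turned without control replicate 1 or EM replicate 3. As cyp19a1a had the same counts in both groups, the difference with all libraries is that of the raw cyp19a1b counts, without size factors. It thus cannot show a change in the balance of the forms.

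The height of cyp19a1b in control replicate 1 was shared with few genes. Among the 19280 genes with a mean normalised read count of at least 10, only 12, with cyp19a1b itself among them, stood highest in control replicate 1 by 8.03 times or more over the next library. As many as 122 genes stood out in this way in control replicate 2, and 0 to 1 genes in each of the other 4. Control replicate 2 had the fewest reads and a size factor low for its total, and the cause was not tested. Besides cyp19a1b, 7 were the yolk precursors vtg1 to vtg7, which the liver makes under estrogen, and a further one was esr1, an estrogen receptor whose gene is also raised by estrogen in the liver of egg-laying vertebrates. The remaining 3 were f13a1a.1, fam20cl and nots. The last encodes nothepsin, an aspartic protease of the liver of female zebrafish. The vtg genes and esr1 stood on lists of genes linked to estrogen, and all of the genes besides cyp19a1b are described here because of their values in control replicate 1.

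Among these genes, esr1 had a peak of a size like that of cyp19a1b. Its normalised read count was 9.37, 4.44 and 7.84 in EM replicates 1, 2 and 3, against 107, 9.91 and 11.7 in control replicates 1, 2 and 3. All EM libraries were below all controls, where 11.3% of all genes tested had groups that did not overlap, in either direction. The nearest libraries were close, at 9.37 in EM replicate 1 and 9.91 in control replicate 2, the latter from 4 reads. The DESeq2 adjusted p-value of esr1 was 0.368 for a log2 fold change of -2.58 ± 1.00 (SE). The yolk genes had a far wider range. For vtg2 the counts were 1, 0 and 0 in EM-juveniles, against 5378, 1 and 0 in control juveniles. For vtg7 they were 7, 4 and 22 in EM-juveniles, against 5602, 4 and 3 in control juveniles. Control replicate 1 stood 183 times above the next library for vtg7. The other vtg genes had at most 7 reads in any other library, and no ratio is given for them. Together the vtg genes took 0.333% of all reads of control replicate 1 and at most 0.000912% of any other library. The vtg genes are similar in sequence, and how reads shared between them were divided is uncertain.

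**Figure D2:**
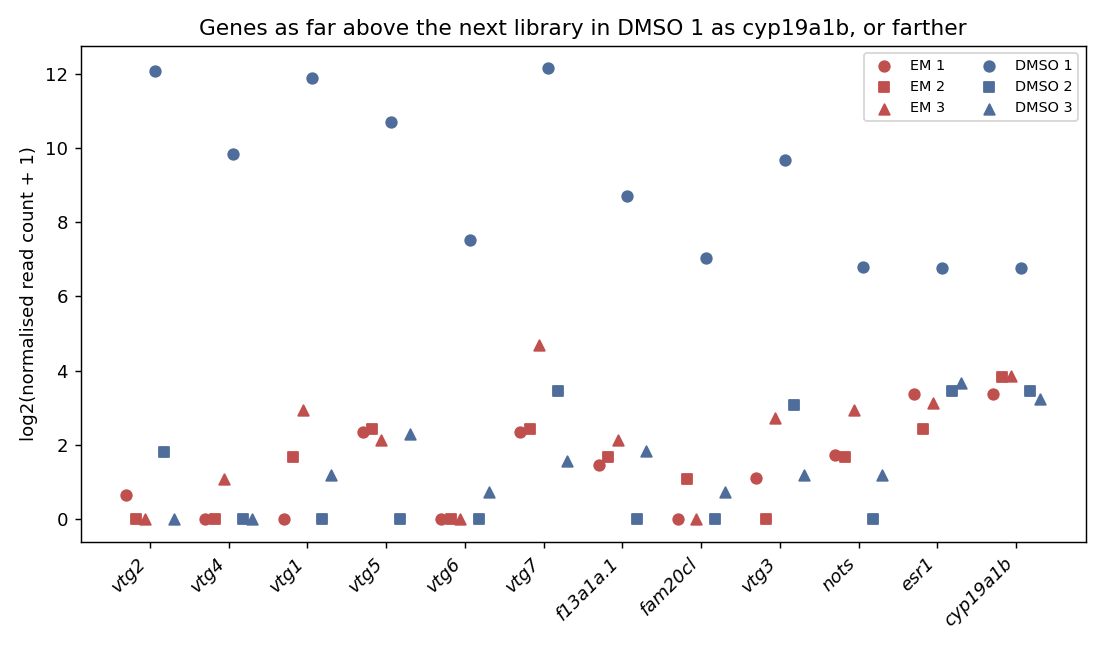
The 12 genes that stood highest in control replicate 1 (DMSO 1) by at least the ratio of cyp19a1b, ordered by that ratio, as log2(normalised read count + 1) in each library (EM in red, DMSO in blue, with 1 marker per replicate). For cyp19a1b and esr1 control replicate 1 lies 8.03 and 9.16 times above the next library, and the yolk genes at the left are at 24.6 or below in every other library.

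The vtg genes received no p-value in DESeq2, because its Cook's distance filter withholds one where a single library dominates a gene. With the filter off, 0 of the 7 were called, with adjusted p-values from 0.0928 to 0.587. With 1 library left out of the DESeq2 fit, 1 vtg gene was called lower without control replicate 2 and 2 without control replicate 3, and 0 without each of the others. Both fits with calls kept control replicate 1 in a smaller control group, and there the filter did not withhold a p-value from the genes called. With 1 library apart from 5 others, an effect of the tank and one of the fish in it cannot be told apart. Markers of brain and liver cells were set beside it, and their part in the result was not tested. The radial glia markers gfap and s100b, the only 2 of 6 whose identifiers could be matched, summed to 471 to 661 in EM-juveniles, against 477 in control replicate 1 and 473 and 560 in the other controls. The neuron marker elavl3 was at 731 to 788 in EM-juveniles, against 899, 909 and 835.5 in control replicates 1, 2 and 3. Of the liver markers other than vtg, tfa, which encodes transferrin, was at 17470 to 20530 in EM-juveniles, against 28830, 11610 and 28070 in control juveniles. The apolipoprotein gene apoa1b was at 10260 to 15150 in EM-juveniles, against 18280, 7027 and 14470 in control juveniles, and fetub at 5838 to 8931, against 11360, 7260 and 13330. In control replicate 3 all vtg genes together had 14 reads.

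foxl2a was measured at a like level in all libraries but control replicate 2. Its counts were 24, 13 and 15 in EM replicates 1, 2 and 3, against 18, 2 and 22 in control replicates 1, 2 and 3. The normalised read counts were 14.1, 14.4 and 16.8 in EM-juveniles and 14.5, 4.95 and 14.3 in control juveniles. The low value rests on 2 reads, and its exact Poisson interval of 0.60 to 17.9 held the values of all the others. That interval covers counting error only, and many genes shared this pattern over the libraries, as described below. The means of foxl2a were 15.1 ± 1.49 in EM-juveniles and 11.2 ± 5.44 in control juveniles (SD, n = 3 each). In DESeq2 the difference was 0.32 ± 0.64 (SE) on the log2 scale, its 95% interval -0.94 to 1.58 and its adjusted p-value 1 after rounding. That interval spans 0.522-fold to 2.98-fold, so changes within it were not excluded. Without control replicate 2 the control mean was 14.4, against 15.1 in EM-juveniles, and the log2 fold change was 0.08 ± 0.58 (SE).

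The groups also overlapped for foxl2b. Its counts were 18, 8 and 9 in EM replicates 1, 2 and 3, against 6, 1 and 15 in control replicates 1, 2 and 3. The normalised read counts were 10.5, 8.88 and 10.1 in EM-juveniles and 4.83, 2.48 and 9.74 in control juveniles. The EM libraries lay close together, and control replicate 3 lay between them while the other controls were below. The means were 9.83 ± 0.86 in EM-juveniles and 5.68 ± 3.71 in control juveniles (SD, n = 3 each). In DESeq2 the difference was 0.67 ± 0.81 (SE) on the log2 scale, its 95% interval -0.92 to 2.25 and its adjusted p-value 1 after rounding. Leaving out control replicate 2 gave 0.44 and leaving out control replicate 3 gave 1.32, neither of them called.

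Summed over both genes, foxl2 had a normalised read count of 24.6, 23.3 and 26.9 in EM-juveniles, against 19.3, 7.43 and 24.0 in control juveniles. On the log2 scale the groups differed by 0.67 (exact permutation test, two-sided, p = 0.2, where 0.1 is the smallest possible). The share of the pair's reads that came from foxl2a was 57.1, 61.9 and 62.5% in EM replicates 1, 2 and 3, against 75.0, 66.7 and 59.5% in control replicates 1, 2 and 3. The interval was widest in control replicate 2, at 9.43 to 99.2% of 3 reads. The mean share was 60.5% in EM-juveniles and 67.0% in control juveniles, and these did not separate (exact permutation test, two-sided, p = 0.3).

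None of the 4 genes was called between EM-juveniles and control juveniles. At the threshold of 0.05 on the DESeq2 adjusted p-value, 1.08% of the 23966 genes tested were called, 0.421% as higher and 0.663% as lower in EM-juveniles. Independent filtering gave cyp19a1a no adjusted p-value. With all libraries, 0 of the members had an unadjusted p-value under 0.05 in DESeq2, the edgeR quasi-likelihood test or voom, against 6.17%, 3.94% and 8.36% of the genes with a p-value. Without control replicate 2 or 3, cyp19a1b was under 0.05 in DESeq2 before adjustment, as were 4.92% and 11.3% of all genes. In normalised read counts the groups did not overlap for 0 of the 4 members, against 11.3% of all genes tested. With CPM in place of size factors, 1 member had groups that did not overlap, against 12.6% of all genes tested. This was foxl2a, at 3.08, 3.11 and 3.70 in EM-juveniles and 2.99, 0.631 and 3.00 in control juveniles, where the gap between the nearest libraries was far smaller than their counting intervals.

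**Figure D3:**
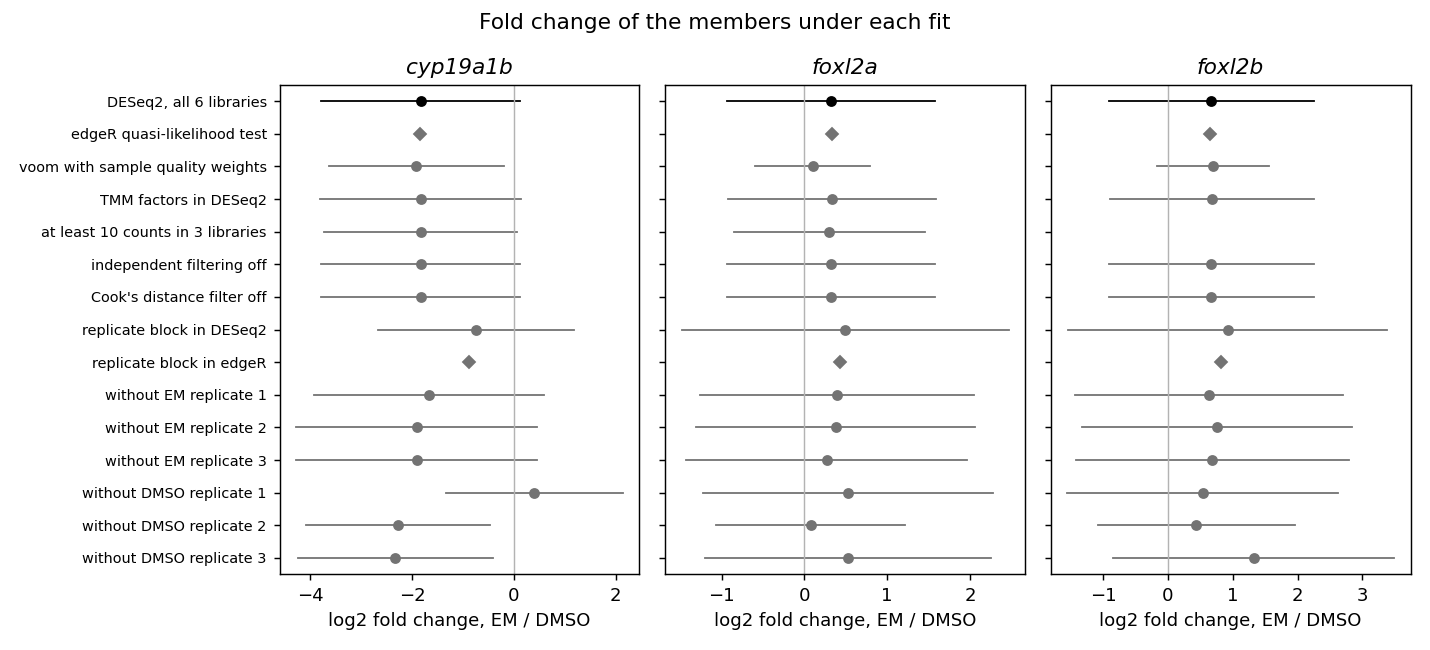
Log2 fold change of EM-juveniles over control juveniles (x axis) for cyp19a1b, foxl2a and foxl2b under each fit (y axis), with circles and lines for the estimate and its 95% interval and diamonds for edgeR, which gives no standard error. The estimate for cyp19a1b is -1.83 with all libraries and 0.40 without DMSO replicate 1, and foxl2a and foxl2b stay above 0 with intervals that span 0.

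The other genes of the pathway were described from a list of 20 genes of steroid synthesis and of gonadotropin, estrogen and androgen receptors. Of these, 17 could be matched to identifiers, while cyp11a2, nr5a1a and esr2b could not. Of the 14 with an adjusted p-value, 0 were called higher and 1 was called lower in EM-juveniles, and at an unadjusted DESeq2 p-value under 0.05 these were 1 and 3. Over the whole table, 1.08% of the genes tested were called, and 6.17% of those with a p-value were under 0.05 before adjustment, in either direction. The median log2 fold change was -0.15, and it was 0.0009 over all genes tested. The gene called lower was cyp11a1, whose product cuts the side chain of cholesterol in the first step of steroid synthesis. It had 0 reads in each EM library, against 29, 1 and 25 reads in control replicates 1, 2 and 3. Its mean was at least 4.98-fold lower in EM-juveniles, taking the mean floor of 3 reads per library, with a DESeq2 adjusted p-value of 0.0124. In 9 of the 14 other fits 0 genes of the list were called lower. Among these, edgeR with and without a replicate block, voom and the fit with a minimum count had removed cyp11a1 for its few reads. They thus did not test it. The others were the DESeq2 fit with a replicate block and those without EM replicate 2 or 3, or control replicate 1 or 3. The reference annotation gives the same name to another identifier, so reads shared with a copy are possible.

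Among the most abundant by read count was hsd11b2, whose product inactivates cortisol and takes part in the making of 11-oxygenated androgens in fish. Its normalised read counts were 290, 338 and 298 in EM-juveniles and 515, 238 and 264 in control juveniles, so the groups overlapped. Upstream of aromatase, cyp17a1, which makes androgen precursors, had normalised read counts of 2.34, 3.33 and 2.24 in EM-juveniles, against 15.3, 7.43 and 16.9 in control juveniles. All EM libraries lay below the controls, where 11.3% of all genes tested had groups that did not overlap, in either direction. Control replicate 2 had only 3 reads, the floor, against 4, 3 and 2 reads in EM replicates 1, 2 and 3. Its place above the EM libraries thus rested on its low size factor. With a log2 fold change of -2.40 ± 0.86 (SE) the adjusted p-value of cyp17a1 in DESeq2 was 0.261. For star, which brings cholesterol into mitochondria, the values were 24.0, 66.6 and 101 in EM-juveniles, against 16.9, 14.9 and 37.0 in control juveniles, and the adjusted p-value was 0.65. The estrogen receptor esr2a had 42.2, 54.4 and 45.9 in EM-juveniles, against 71.6, 4.95 and 37.7 in control juveniles. It thus had no peak in control replicate 1 like that of esr1. The androgen receptor ar was at 120, 66.6 and 102 in EM-juveniles and at 101, 12.4 and 145 in control juveniles. The gonad regulator nr5a1b was at or under 3 reads in all libraries, as cyp19a1a was. Apart from cyp11a1, the genes of this list that are named here were singled out after their values were seen.

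Genes of the oocyte were lower in EM-juveniles, and neither foxl2 gene was called. Of 16 genes of oocytes and the egg coat, 15 were matched, and 13 of these were called lower in EM-juveniles, with a median log2 fold change of -7.49, or -4.42 with genes at the floor set to their bound. The summed normalised read count of the list was 6.66 to 21.7 in EM-juveniles, against 2412, 438 and 1063 in control replicates 1, 2 and 3. The genes called were the transcription factor gene figla, the maternal factors zar1, zar1l and buc, and the egg coat genes zpcx, zp3b, zp3c, zp2.1, zp2.2, zp2.3, zp2.5, zp3.2 and zp3, while gdf9 and bmp15, growth factors of the oocyte, were not. Reads shared within the zp family may be divided uncertainly. The list was chosen with results of these libraries known, so its direction is not independent evidence. For example zar1 had 7, 1 and 3 reads in EM-juveniles, against 524, 18 and 200 reads in control juveniles (DESeq2 adjusted p-value 7.64e-08). The edgeR quasi-likelihood test called 0 of the list, as of all genes (759 at an unadjusted p-value under 0.05), and voom 8. Both tested only 19264 genes, after removing those with few reads. The genes figla, zar1l, zp3c, zp2.1, zp2.5, gdf9 and bmp15, with 6 reads or fewer in control replicate 2, were removed and thus not tested by either. Over the same libraries, the summed foxl2 level of EM-juveniles was at 23.3 or above. The fold changes of the oocyte genes and of the foxl2 genes were not tested against each other.

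Among genes of gonadal somatic cells, amh, a hormone of Sertoli cells that granulosa cells also make, had normalised read counts of 58.0, 41.0 and 28.0 in EM-juveniles, against 6.44, 0 and 13.0 in control juveniles. All EM libraries were above all controls, where 11.3% of all genes tested had groups that did not overlap, in either direction. For amh DESeq2 gave 2.52 ± 0.77 (SE) on the log2 scale at an adjusted p-value of 0.0827, and amh was called only without control replicate 2 or 3. For gsdf, a gonadal growth factor, the values were 61.5, 45.5 and 23.5 in EM-juveniles and 29.0, 7.43 and 44.8 in control juveniles, and the groups overlapped. Of the 4 testis genes with reads, 0 were called. Of the germ cell genes, 1 of 5 was called lower, dazl, which encodes an RNA-binding protein of germ cells, with 10, 4 and 2 reads in EM-juveniles, against 50, 12 and 44 reads in control juveniles (DESeq2 adjusted p-value 0.00178). Of the germ cell genes, 0 were called lower in 6 of the 14 other fits, namely edgeR, both fits with a replicate block, and those without EM replicate 2, EM replicate 3 or control replicate 1. Without control replicate 2, 3 of the germ cell genes were called lower.

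The pituitary is another place where foxl2 is made in mice. Of 7 pituitary markers, cga and pomca could not be matched. The 5 matched, lhb, fshb, tshba, prl and gh1, summed to normalised read counts of 48.1 to 69.1 in EM-juveniles, against 54.7, 7.43 and 128 in control replicates 1, 2 and 3. Most of each sum was gh1, at 53.3, 45.5 and 43.65 in EM-juveniles, against 41.8, 7.43 and 109 in control juveniles. What part of the foxl2 reads came from the gonad, the pituitary or other tissue was not tested.

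**Figure D4:**
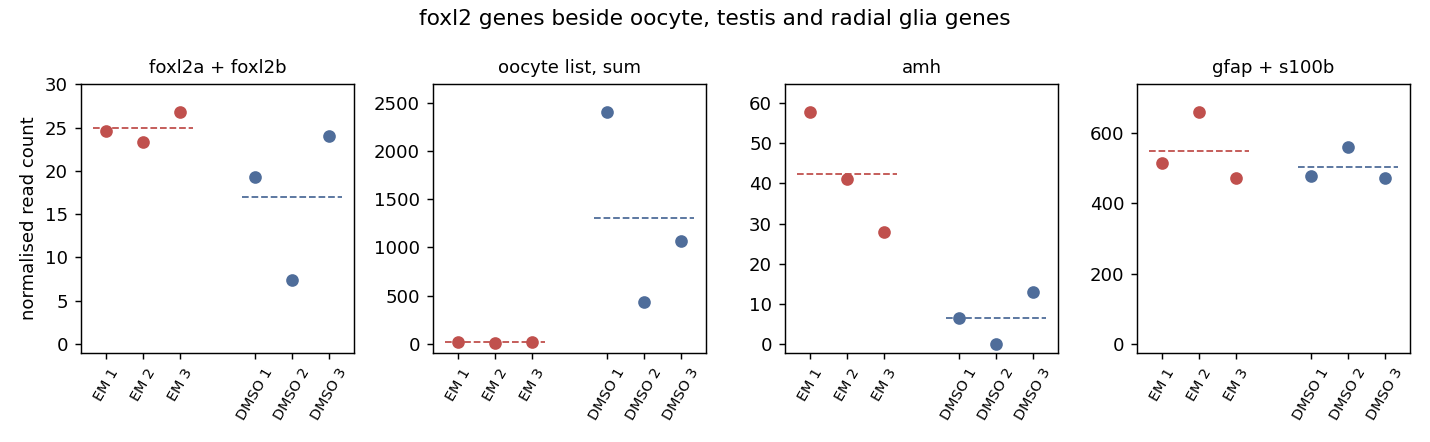
Normalised read counts per library (EM in red, DMSO in blue, dashed lines for group means) of foxl2a and foxl2b summed, of the oocyte list summed, of amh, and of the radial glia markers gfap and s100b summed. The oocyte list is at 21.7 or below in the EM libraries and at 438 or above in the controls, while the foxl2 sums of the groups overlap.

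The genes most like a member were sought by Pearson's r of log2(normalised read count + 1) over the 6 libraries, among 16343 other genes with a symbol and a mean of at least 10. For cyp19a1b these were zgc:158258 (r = 0.995), ILVBL (0.990) and vtg4 (0.989). A high r does not mean a peak of like size. In control replicate 1 zgc:158258 was at 152, against 88.99 to 101 in the other libraries, and ILVBL at 316.9, against 198.2 to 220.5. Neither was among the genes that stood out there by the ratio of cyp19a1b. Without control replicate 1, where cyp19a1b has its peak, r was 0.917, 0.742 and 0.602. The last value rests on a single read, since vtg4 had 1 read in EM replicate 3 and 0 in the others left. Only 17 genes had an r over 0.95 with cyp19a1b. For foxl2a they were tram2 (r = 0.999), ly6m2 (0.999) and si:ch73-144d13.4 (0.998), and without control replicate 2 r was 0.985, 0.983 and 0.897. As many as 1737 genes had an r over 0.95 with foxl2a, so its pattern was a common one. foxl2b had a mean under 10 and was left out of this search.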

How the data were processed

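The authors aligned stranded mRNA reads to the GRCz11 zebrafish genome with HISAT2 2.0.5, removed duplicates with SAMtools 1.5 and counted exon reads per Ensembl gene on the reverse strand with HTSeq 0.9.1. The deposited values are raw read counts for 32520 genes. Removing duplicates can lower the counts of abundant genes, such as vtg, more than those of weak ones.

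Groups and replicate numbers came from the sample titles. As in the study, the test was DESeq2 (1.42.0, in R 4.3.3; two-sided Wald test, no covariate), fitted to all genes with at least 1 count, at a Benjamini-Hochberg adjusted p-value of 0.05. Alternatives were edgeR 4.0.16 quasi-likelihood, voom of limma 3.58.1 (libraries weighted by quality), DESeq2 with TMM factors, a minimum of 10 counts in 3 libraries, both DESeq2 filters off, a replicate block and leaving out each library. The fits were tested on simulated data. Single values were compared with an exact permutation test over libraries, and the pseudocount was 1 (0.5 for the ratio).

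The members and lists were chosen with earlier results of these data known. The genes to name were the members, the called genes of each list or else up to 3 of its most abundant, and the 3 genes of highest r with a member. Genes singled out after their values were seen are marked where they are described. The symbols of the members were given with the identifiers by which they were chosen. Other symbols came from the reference table or from the names in the study's tables, where 1 identifier carried them. As p-values measure the spread between pooled tanks, n is 3 per group. Gene coordinates and sequences were not used here.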

Additional observations from a re-analysis of the deposited data

How the results depend on the processing

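The log2 fold change of cyp19a1b (-1.83) was not called in any alternative, and it reversed to 0.40 without control replicate 1. Leaving out single libraries gave -2.33 to 0.40 for cyp19a1b, 0.08 to 0.53 for foxl2a and 0.44 to 1.32 for foxl2b. Both foxl2 genes stayed above 0 in all fits that tested them, but the minimum of 10 counts in 3 libraries removed foxl2b. The log2 difference in the ratio of the aromatases (-0.55) reversed to 0.29 without EM replicate 3 and to 1.20 without control replicate 1, with -1.62 without control replicate 3 at the other end. The number of members with groups that did not overlap was 0, but 1 with CPM, against 11.3% and 12.6% of all genes tested. With single libraries left out it was 0 to 1. Smaller groups separate more easily, and the share over all genes was not computed for them, so these counts have no background. The cause of these changes was not tested.

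The number of genes called over the whole table (260) was 0 with edgeR, where 759 had an unadjusted p-value under 0.05, 93 with voom, 90 with the minimum count and 126 to 542 with single libraries left out (542 without EM replicate 1, 128 without control replicate 1, 127 and 126 without EM replicates 2 and 3). With a replicate block it was 174 in DESeq2 and 48 in edgeR, and cyp19a1b was at -0.75 and -0.89. Same-numbered libraries are different tanks. Their deviations from the group means correlated at -0.15, 0.21 and -0.20. With 3 libraries per group centred on their own mean, these values cannot decide whether the numbers pair the libraries. Depth limits what can be said of all members, which had at most 24 reads per library apart from 1 value.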
